A study of Arabidopsis thaliana with 8 samples.

Results

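COR15B (AT2G42530) and KIN2 (AT5G15970) are cold-regulated genes of Arabidopsis thaliana, and the signal of both was lower in yda-2 rosettes than in wild-type (WT) rosettes in all 4 same-numbered pairs of arrays. On the Affymetrix AtGenome1 array, the platform annotation gives 1 probe set to COR15B alone (13785_at) and 2 probe sets to KIN2 alone (18700_r_at and 18699_i_at), 3 of the 8297 probe sets in the table. They are 2 of the 3592 genes with a probe set of their own. A further probe set, 18701_s_at, is annotated to KIN2 and its neighbour KIN1 together and is described beside them. The genes were singled out because an earlier comparison of these same arrays gave them low values in yda-2, so their difference between the genotypes is described here without a test. Their variation between harvests, and the other cold genes on the array, were tested.

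The mutant plants carried the yda-2 allele of YODA (YDA), the gene of a MAP3 kinase known to limit how many stomata form in the leaf epidermis, and they were set against WT plants. Both genotypes were grown in soil at 22 °C under constant light, and the labels name no cold treatment. RNA came from all aerial parts of rosettes before bolting, with 4 arrays for yda-2 and 4 for WT. The labels describe 4 replications that differ in when plants were grown and harvested, and yda-2 and WT arrays of one number are taken here as one harvest. The labels give neither the accession background nor the number of plants in an RNA sample. No probe set was annotated to YDA alone and its transcript was not analysed here, so the targeted gene gives no check of the genotype labels.

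Plants that acclimate to cold induce the CBF transcription factors, which bind the CRT/DRE element of the promoters of COR (cold-regulated) genes. COR15B and its paralogue COR15A encode small hydrophilic proteins that are imported into the chloroplast stroma and protect membranes during freezing. KIN2, also named COR6.6, and its paralogue KIN1 encode small hydrophilic proteins whose transcripts are induced by cold, dehydration and abscisic acid. Each pair lies side by side in assembly TAIR10.1. The gene model of COR15B overlaps that of its other neighbour, AT2G42520. No probe set was annotated to COR15A alone or KIN1 alone, and hybridization of the probes to a paralogue's transcript was not tested.

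The arrays formed visible sets. The highest signal on an array was between 22519 and 33920 in replicates 1 and 2 and between 6226 and 10422 in replicates 3 and 4, with both genotypes in each set. The geometric mean of 9 bacterial and phage control probe sets was also higher in replicates 1 and 2 (1596 to 2390) than in replicates 3 and 4 (502.6 to 764.6). Of 16 marker genes of photosynthetic leaf tissue, 5 were measured, and their summed signal ran from 16557 to 81237 in yda-2 and from 16635 to 82468 in WT. No marker of root or of flowers had a probe set of its own. Precision is limited by the number of arrays.

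COR15B gave a moderate signal that was lower in yda-2 in each pair. Its signal was 352.3, 464.1, 291.2 and 917.0 in yda-2 replicates 1 to 4, and 926.5, 576.0, 1061 and 2579 in WT replicates 1 to 4. Replicate 4 was the highest array in both genotypes, and the groups overlapped, because yda-2 replicate 4 stood above WT replicate 2. The mean signal was 506.2 ± 283.1 in yda-2 and 1286 ± 886 in WT (SD, n = 4 each). The pair differences were -1.36, -0.30, -1.81 and -1.48 on the log2(signal + 16) scale, with a mean of -1.24 and an SD of 0.65. Replicate 2 thus showed the smallest gap, at a yda-2 to WT signal ratio of 0.806, against 0.275 to 0.380 in the other three.

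In terms of its place on each array, COR15B stood at the 69.8, 75.4, 63.9 and 82.0 percentile of all probe sets without controls in yda-2 replicates 1 to 4. In WT replicates 1 to 4 it stood at the 85.0, 78.3, 85.1 and 93.3 percentile. The place was lower in yda-2 in each pair, as the signal was. Among the 4788 probe sets whose mean signal reached 100, the log2 difference of COR15B was the 12th lowest. Those of 18700_r_at and 18699_i_at of KIN2 were the 289th and 497th lowest. These ranks are descriptions that rest on the values the genes were chosen for.

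**Figure D1:**
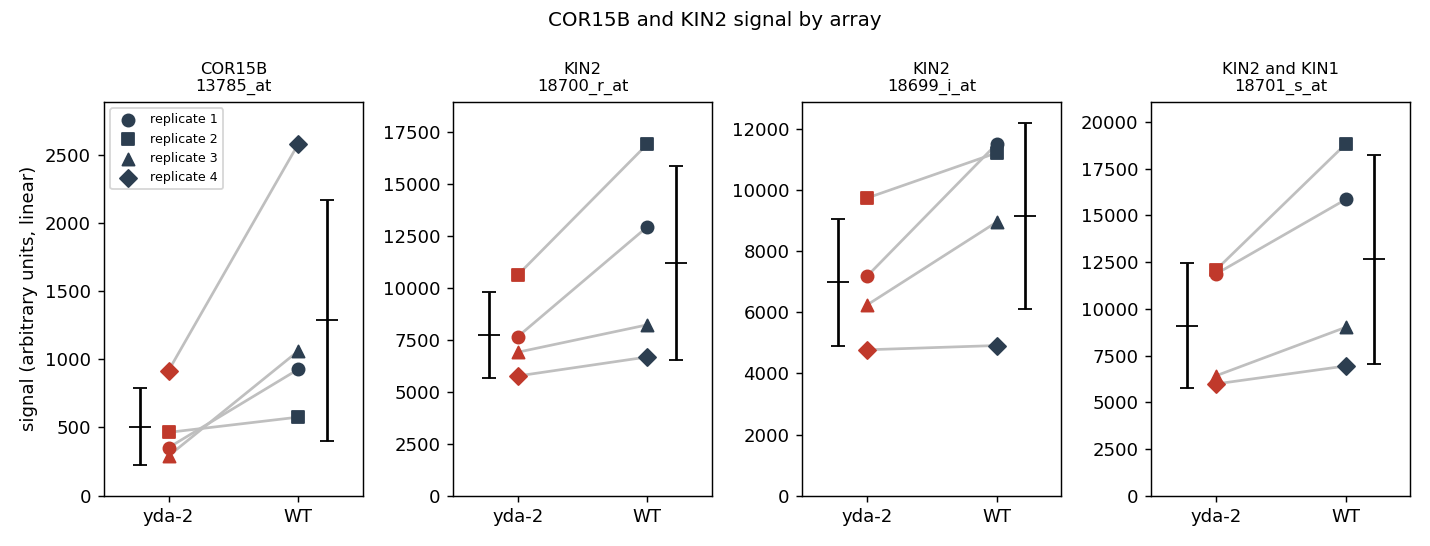
Signal (linear, arbitrary units) of the COR15B and KIN2 probe sets and of the probe set shared by KIN2 and KIN1, with yda-2 left and WT right; grey lines join same-numbered replicates, and bars beside the points show mean ± SD (n = 4). Every line rises towards WT, and COR15B reaches 2579 in WT replicate 4 and 917.0 in yda-2 replicate 4.

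KIN2 gave some of the brightest signals of the arrays and was lower in yda-2 in each pair, by a smaller margin than COR15B on average. In replicate 2, where COR15B differed by -0.30, the margin was smaller on 18699_i_at (-0.20) but larger on 18700_r_at (-0.67). Probe set 18700_r_at, the brighter of the pair, read 7644, 10609, 6898 and 5756 in yda-2 replicates 1 to 4, and 12931, 16912, 8216 and 6671 in WT replicates 1 to 4. Replicate 2 was the highest and replicate 4 the lowest in both genotypes, and the groups overlapped. The means were 7727 ± 2073 in yda-2 and 11183 ± 4656 in WT (SD, n = 4 each). The pair differences were -0.76, -0.67, -0.25 and -0.21 on the log2 scale, with a mean of -0.47 and an SD of 0.28. Its place on the array was lower in yda-2 only in replicates 1 and 2. In replicates 3 and 4 it stood at the 99.98 and 99.92 percentile in yda-2, against 99.67 and 99.81 in WT. The place of 18699_i_at was lower in yda-2 in replicates 1 to 3 and higher in replicate 4 (98.98 against 98.20).

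The second KIN2 probe set, 18699_i_at, read 7175, 9737, 6236 and 4773 in yda-2 replicates 1 to 4, and 11507, 11216, 8950 and 4913 in WT replicates 1 to 4. Its pair differences were -0.68, -0.20, -0.52 and -0.04, with a mean of -0.36 and an SD of 0.29. The genotypes of replicate 4 were thus almost level on this probe set, with a yda-2 to WT ratio of 0.972. The probe set shared with KIN1, 18701_s_at, averaged 9087 ± 3341 in yda-2 and 12655 ± 5603 in WT (SD, n = 4 each), with a mean pair difference of -0.44 and an SD of 0.18.

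All 3 probe sets of COR15B and KIN2 were lower in yda-2 in 4 of 4 pairs, as were 7.10% of all tested probe sets. Since the genes were chosen on this contrast, nothing is read from that count. For 0 of the 3 did all yda-2 signals lie below all WT signals, against 0.647% of the tested probe sets. The control transcripts were also lower in yda-2 in 4 of 4 pairs, by -0.58, -0.33, -0.07 and -0.61 on the log2 scale. The ubiquitin 3' to 5' signal ratio, a measure of RNA quality, was higher in yda-2 in the same 4 pairs, by 0.59, 0.66, 0.01 and 0.09 on the log2 scale. The same ratio of GAPDH went both ways, at -0.26, 0.77, -0.54 and 0.17. The part of these measures in the differences of COR15B and KIN2 was not tested. In whole aerial tissue, fewer cells that express a gene and less of its RNA per cell cannot be told apart.

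**Figure D2:**
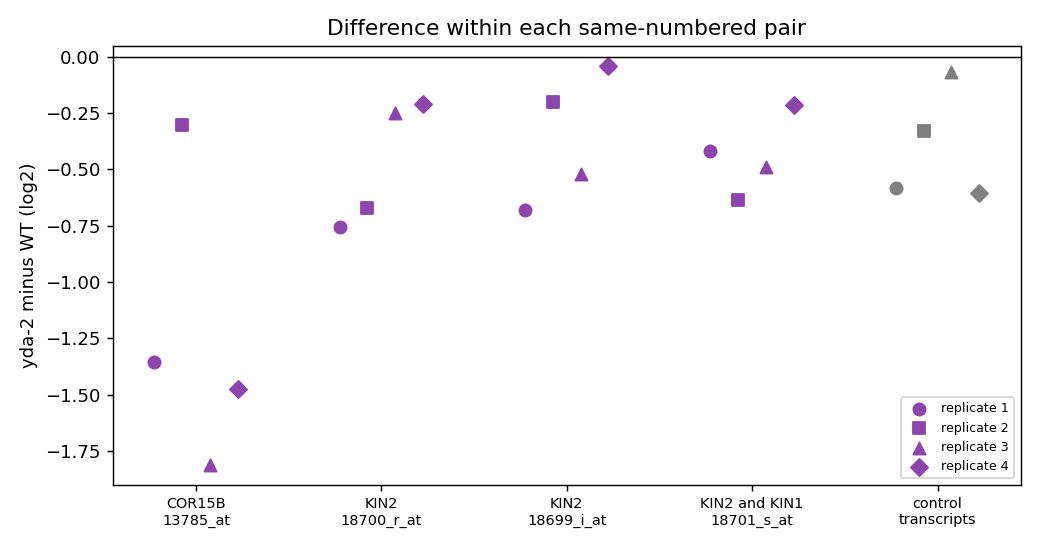
Difference between yda-2 and WT (log2) within each same-numbered pair, for the 3 probe sets of COR15B and KIN2, the probe set shared by KIN2 and KIN1, and the mean of 9 control transcript probe sets; symbols mark the replicate. All points lie below 0, COR15B between -0.30 and -1.81 and KIN2 between -0.04 and -0.76.

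The size of the differences depended on how the arrays were scaled. Quantile normalization reduced the KIN2 difference and left that of COR15B almost unchanged, whereas scaling to control transcripts moved both by a similar amount. After quantile normalization the difference was -1.23 for COR15B and -0.11 for KIN2 (18700_r_at), and -0.07 for 18699_i_at. When arrays were scaled to their control transcripts, which moved the median of all tested probe sets to 0.40, the difference was -0.85 for COR15B, -0.077 for 18700_r_at and 0.03 for 18699_i_at, where the sign turned. Relative to that median they were -1.25, -0.48 and -0.36. Without WT replicate 2 the difference of 18700_r_at was -0.24, and with estimated array weights it was -0.28. Both differences also varied between the array sets. COR15B averaged -0.83 in replicates 1 and 2 and -1.64 in replicates 3 and 4, whereas 18700_r_at averaged -0.71 in replicates 1 and 2 and -0.23 in replicates 3 and 4. The change was smaller on 18699_i_at, which averaged -0.44 in replicates 1 and 2 and -0.28 in replicates 3 and 4, and on the shared probe set (-0.53 and -0.35).

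KIN2 came closer to the array maximum in replicates 3 and 4 than in replicates 1 and 2. Its brighter probe set reached 99.0% and 92.4% of the array maximum in yda-2 replicates 3 and 4, and 78.8% and 84.9% in WT replicates 3 and 4. In replicates 1 and 2 it reached 22.5% and 47.1% in yda-2, and 42.0% and 64.9% in WT. The dimmer 18699_i_at reached 89.5% and 76.7% in yda-2 replicates 3 and 4, and 85.9% and 62.5% in WT replicates 3 and 4. COR15B stayed at 14.7% or less in yda-2 and at 32.8% or less in WT. A further 51 probe sets were at least as bright as KIN2 by their mean place on the arrays, a set drawn after the values were seen. Of these, 15 (29.4%) were lower in yda-2 in 4 of 4 pairs, against 7.10% of all tested probe sets, and their median log2 difference was -0.19, against 0.02. The labels give no upper limit of the signal, and whether such a limit shaped the KIN2 values was not tested.

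On the deposited scale, the genes had their extremes at different harvests. For COR15B, the mean signal of the pair (taken on the log2 scale over both genotypes) was 573.2, 517.1, 559.1 and 1540 in replicates 1 to 4. Replicate 4 stood apart, and the other three lay close together. For KIN2, 18700_r_at gave 9943, 13395, 7529 and 6196, and 18699_i_at gave 9087, 10450, 7471 and 4843. Replicate 4, the highest for COR15B, was the lowest for KIN2 on both probe sets. The order for KIN2 depended on the scaling: 18700_r_at was highest in replicate 4 and lowest in replicate 1 after quantile normalization, and highest in replicate 3 and lowest in replicate 1 with control scaling, whereas COR15B was highest in replicate 4 under both.

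The highest and lowest harvest differed by 1.55 on the log2 scale for COR15B, and by 1.11 for each KIN2 probe set, against a median of 0.82 over all tested probe sets. With genotype and replicate number in one limma fit, the moderated F test between harvests gave adjusted p = 0.0612 for COR15B, adjusted p = 0.0596 for 18700_r_at and adjusted p = 0.0627 for 18699_i_at. So 0 of the 3 passed an adjusted p of 0.05, which 8.29% of tested probe sets (397) did. At an unadjusted p under 0.05 all 3 were included, as were 27.7% of the tested probe sets. The shared KIN2 and KIN1 probe set passed, with adjusted p = 0.0193 and a range of 1.23.

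Single arrays decided these calls. COR15B passed without yda-2 replicate 2 (adjusted p = 0.00295), without WT replicate 2 (adjusted p = 0.00824) and without both (adjusted p = 0.00524), and 18700_r_at passed without yda-2 replicate 2 (adjusted p = 0.0323). Without the pair of replicate 4, the harvest range of COR15B was 0.14 (adjusted p = 0.956), and without that of replicate 2, the range of 18700_r_at was 0.68. The number of tested probe sets past the threshold was 32, 1476, 172 and 211 without yda-2 replicates 1, 2, 3 and 4, and 49, 922, 208 and 167 without WT replicates 1, 2, 3 and 4. Harvest and array processing cannot be told apart, since each replicate number stands for both.

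**Figure D3:**
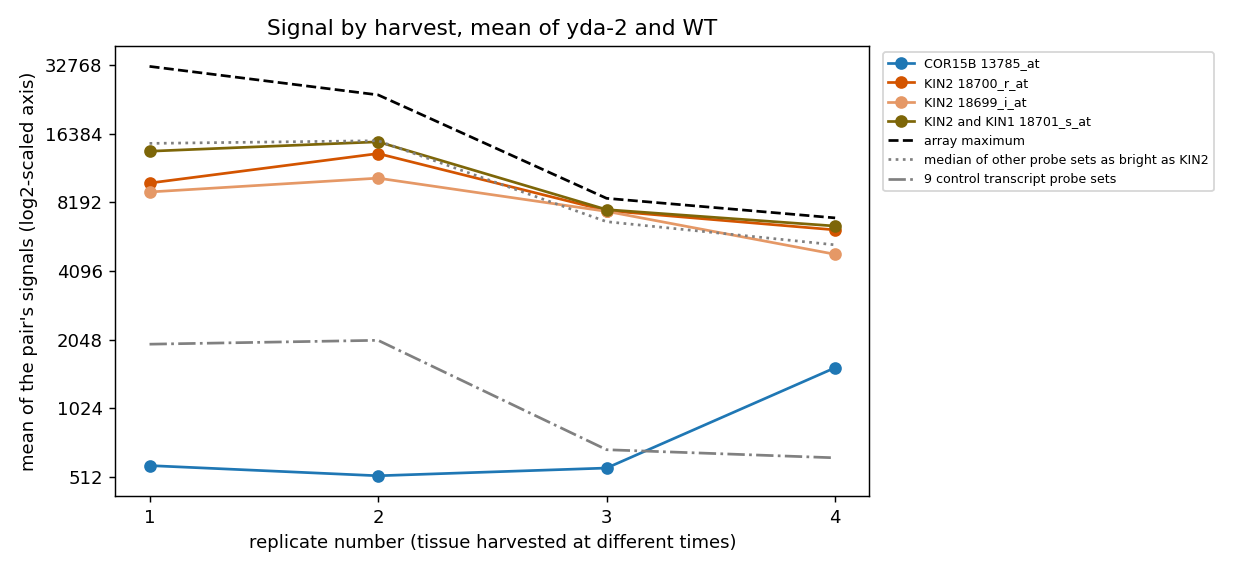
Mean signal of the yda-2 and WT arrays of each replicate number (axis scaled by log2) for COR15B, KIN2 and the shared KIN2 and KIN1 probe set, with the array maximum, the median of 51 other probe sets as bright as KIN2, and 9 control transcript probe sets; lines only guide the eye. COR15B is highest in replicate 4 at 1540, where KIN2 and the array maximum are lowest.

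Among the 51 other probe sets as bright as KIN2, 34 had their highest pair mean in replicate 1 and 17 in replicate 2, and 48 had their lowest in replicate 4. Of the 51, 40 (78.4%) passed the test between harvests. Their median pair mean was 14844, 15247, 6732 and 5327 in replicates 1 to 4, and the array maximum averaged over the pair was 32306, 24230, 8522 and 6994. KIN2 followed the same order of harvest sets. COR15B did not, its highest harvest being the one with the lowest array maximum. Of all tested probe sets, 34.0% were highest in replicate 4. After quantile normalization the range was 1.34 for COR15B (adjusted p = 0.176) and 0.87 for 18700_r_at (adjusted p = 0.163).

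Within each genotype COR15B varied more than KIN2. Its signal spanned a 3.15-fold range over the yda-2 arrays and a 4.48-fold range over the WT arrays, and 85.7% and 91.0% of the tested probe sets had a smaller log2 range in yda-2 and in WT. For 18700_r_at the spans were 1.84-fold in yda-2 and 2.54-fold in WT, with 47.7% and 67.8% of the tested probe sets having a smaller log2 range. The highest array was the same replicate in both genotypes for COR15B and for 18700_r_at, as for 41.0% of the tested probe sets, but not for 18699_i_at, which was highest in replicate 2 in yda-2 and in replicate 1 in WT. With 1 array per genotype and harvest, a change of the genotype difference with harvest could not be tested.

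Few other genes of the cold pathway had a probe set of their own. Of 36 listed effector genes of cold acclimation besides COR15B and KIN2, 4 were measured. By mean log2 difference 1 was higher and 3 were lower in yda-2, with a median of -0.12 against 0.02 over all tested probe sets. The lower means of LTI30 and AT4G33980 rested on replicate 2. By limma, 0 of the 4 passed in either direction, with or without the replicate block, and 0 had an unadjusted p under 0.05, against 3.22% of all tested probe sets. Of all tested probe sets, 0.0418% were called higher in yda-2 and 0% lower, and with the block 0.188% and 0%.

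COR47, a dehydrin gene induced by cold, gave different signs on its probe sets. Its brighter one, 15997_s_at, averaged 4378 ± 875 in yda-2 and 4157 ± 1084 in WT (SD, n = 4 each), a log2 difference of 0.09 (SE 0.28, limma adjusted p = 1.00). The other, 13225_s_at, read 3514, 2498, 3253 and 3328 in yda-2 replicates 1 to 4, and 4565, 6035, 1904 and 2100 in WT replicates 1 to 4. It was lower in yda-2 in replicates 1 and 2 and higher in replicates 3 and 4, with a mean log2 difference of -0.05.

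LTI30, a dehydrin gene induced by low temperature, was dim, at 220.1, 17.3, 111.3 and 141.0 in yda-2 replicates 1 to 4, and 238.3, 337.2, 115.3 and 101.9 in WT replicates 1 to 4. Its log2 difference of -0.79 (SE 0.59, adjusted p = 1.00) rested on replicate 2. LTI30 was only slightly lower in yda-2 in replicates 1 and 3, and higher in replicate 4. AT1G54410, the dehydrin gene HIRD11, averaged 8192 ± 3289 in yda-2 and 8777 ± 3297 in WT (SD, n = 4 each), a log2 difference of -0.12. AT4G33980, the remaining listed gene, averaged 153.3 ± 12.2 in yda-2 and 184.5 ± 107.4 in WT, a log2 difference of -0.12. It was lower in yda-2 in only 1 of 4 pairs, replicate 2, where the WT signal was 345.2.

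Of 15 regulators of the cold response, 1 was measured. STZ, a zinc finger repressor induced by cold and salt, read 13211, 7480, 3776 and 2309 on its brighter probe set in yda-2 replicates 1 to 4, and 14989, 15410, 2579 and 985.6 in WT replicates 1 to 4. The genotypes overlapped, with a log2 difference of 0.13 (SE 0.85, adjusted p = 1.00). STZ differed between harvests, with a range of 3.21 and adjusted p = 0.00877 (limma moderated F), highest in replicate 1 and lowest in replicate 4 on this probe set. Its other probe set, 18216_at, did not pass (range 1.78, adjusted p = 0.0935). None of the 33 listed dehydration and abscisic acid genes was tested: 1, LEA4-5, had a probe set, and its mean signal was 61.7 in yda-2 and 49.4 in WT. GI, the 1 measured gene of 10 listed for the circadian clock, had a log2 difference of 0.26 (adjusted p = 1.00) on its brightest probe set, and its harvest test gave adjusted p = 0.344. Its other tested probe sets differed in sign, at 0.41 (14298_g_at) and -0.17 (17581_g_at).

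A wider list took 13 genes whose annotation names cold, low temperature, drought, dehydrins or late embryogenesis abundant proteins. It was drawn after the annotation was seen, includes COR47, LTI30 and AT1G54410, and its other genes lie outside the rule for names. Of these 13, 7 were tested, 4 higher and 3 lower in yda-2, with a median log2 difference of 0.09, and 0 passed in either fit. DI21, a drought-induced gene, was higher in yda-2 in 4 of 4 pairs on 16943_s_at, as were 9.44% of the tested probe sets, at 499.5 ± 20.8 in yda-2 and 343.3 ± 114.1 in WT (SD, n = 4 each). Its log2 difference there was 0.59 (SE 0.28, limma adjusted p = 1.00, and 0.672 with the block). On its other probe set, 18231_at, the log2 difference was 0.35 (SE 0.29), and yda-2 was lower in 1 of 4 pairs. SRC2, named for a soybean gene regulated by cold, averaged 6510 ± 3594 in yda-2 and 7258 ± 4303 in WT and passed the harvest test (range 1.98, adjusted p = 0.00622), highest in replicate 1 and lowest in replicate 4.

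**Figure D4:**
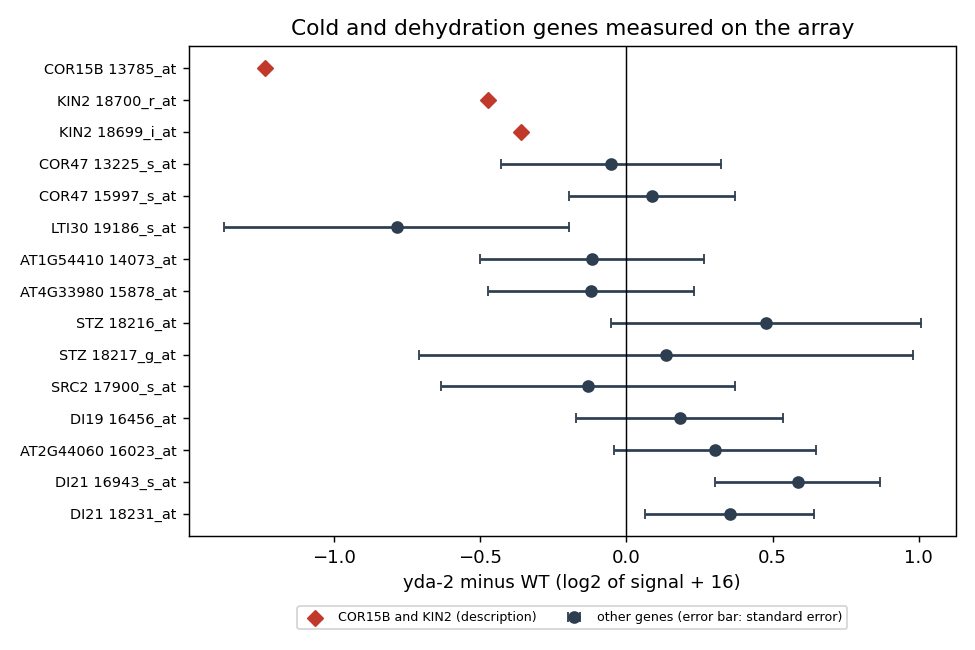
Difference between yda-2 and WT on the log2(signal + 16) scale for the probe sets of COR15B and KIN2 (diamonds, no test) and of the other tested cold and dehydration genes (points, with the standard error of the limma fit; 4 arrays per genotype). COR15B lies at -1.24, and the others spread on both sides of 0, between -0.79 for LTI30 and 0.59 for DI21.

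On the deposited scale, the profiles of COR15B and KIN2 over the 8 arrays were unlike each other. Pearson's r between their log2 signals was -0.16, and -0.73 once the mean of each genotype was subtracted, whereas the 2 KIN2 probe sets correlated at 0.91. These values are descriptions over 8 arrays that share harvests in pairs, array sets and scaling.

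Among 1920 genes with a tested probe set of their own, the 5 closest to COR15B were TAPX (r = 0.91), AT5G11770 (0.85), AT4G28780 (0.84), MSRB6 (0.83) and AT2G26340 (0.83). TAPX, which encodes the thylakoid ascorbate peroxidase, read 1135, 1378, 1136 and 1524 in yda-2 replicates 1 to 4, and 1515, 1454, 1793 and 1787 in WT replicates 1 to 4. It was lower in yda-2 in 4 of 4 pairs, as were 7.10% of the tested probe sets, with a mean log2 difference of -0.34. Its likeness to COR15B brings this direction with it. Replicate 4 was its highest array in yda-2 and replicate 3 in WT. MSRB6, which encodes a methionine sulfoxide reductase, read 258.9, 528.3, 232.7 and 355.6 in yda-2 replicates 1 to 4, and 434.0, 509.4, 717.2 and 959.9 in WT replicates 1 to 4. Its pair of replicate 2 was nearly level, as that of COR15B was closest there, which the choice by correlation also brings with it.

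The 5 genes closest to KIN2 (18700_r_at) were AOP3 (r = 0.96), AT5G62350 (0.95), AT4G29030 (0.94), AT2G43230 (0.94) and AT4G32020 (0.93). AOP3, which encodes an enzyme that modifies glucosinolate side chains, read 4990, 6262, 3203 and 3317 in yda-2 replicates 1 to 4, and 9053, 9759, 5342 and 3582 in WT replicates 1 to 4. All 5 were lower in yda-2 in 4 of 4 pairs, with log2 differences between -0.59 and -0.25, which their likeness to KIN2 brings with it. Their brightness ranged widely, from 92.5 in yda-2 and 139.5 in WT for AT2G43230 to 5557 in yda-2 and 6583 in WT for AT5G62350.

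**Figure D5:**
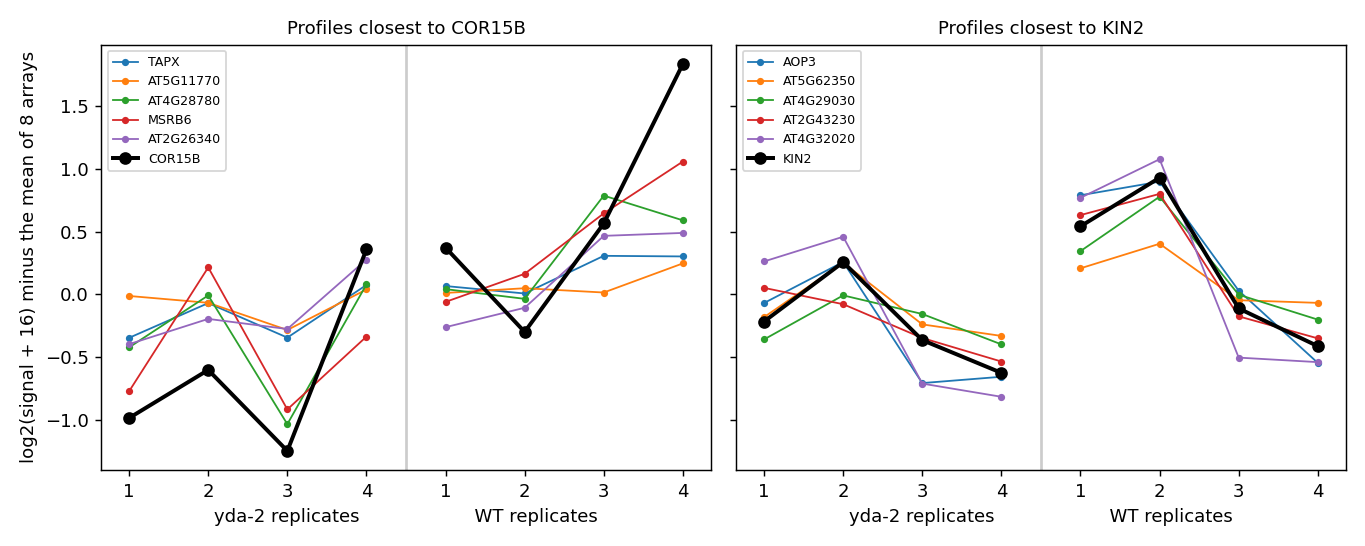
Profiles over the 8 arrays, as log2(signal + 16) minus the mean of the 8 arrays, of COR15B (left) and KIN2 18700_r_at (right) in black with the 5 genes of highest Pearson correlation in colour; yda-2 arrays stand left of WT arrays and lines only guide the eye. COR15B peaks in replicate 4 of each genotype, and KIN2 peaks in replicate 2 of each.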

How the data were processed

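Per the labels' protocols, 8 RNA samples were each hybridized to an AtGenome1 array (Affymetrix), after which the authors scaled the average signal of the arrays to 500. The deposited values are signal intensities on a linear scale, 1 per probe set and array. The summary algorithm is not given in the sources used here. Groups and replicate numbers come from the titles. Names come from the platform annotation, updated through gene identifiers to TAIR10.1: 3794 probe sets have 1 gene, 70 have several and 4383 have none there.

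Signals were used as log2(signal + 16), a scale on which dim probe sets change less. Apart from 50 control probe sets, the 4788 whose mean signal reached 100 were tested with limma 3.58.1 in R 4.3.3 (eBayes with intensity trend, two-sided, Benjamini-Hochberg adjustment over all tested, threshold 0.05). Genotype was fitted without a block, and harvest by a moderated F with genotype and replicate number. Figures used matplotlib 3.10.9. Alternatives were pseudocounts, filters, scalings, eBayes settings, array weights, the replicate block and left-out arrays or pairs. Scaling to control transcripts, the other KIN2 probe sets and the block with a pair left out were added after the data were seen.

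The labels give replicates as harvested at different times. Group means were subtracted, and yda-2 and WT arrays of one number were compared by Pearson correlation over probe sets. It was 0.596 (replicate 1), 0.296 (2), 0.324 (3) and 0.577 (4). The closest match bore the same number for 6 of 8 arrays and a different number for the rest. Subtracting group means lowers correlations within a genotype, and the array sets also narrow the possible matches, so this count does not settle the pairing. The labels do not tie the numbers to a shared harvest, but the numbers were taken to pair the arrays. Pair differences, counts of pairs and harvest tests rest on this pairing. The text names COR15B and KIN2, the tested cold effectors, listed genes past the threshold, STZ, GI and the 5 genes closest to COR15B and to KIN2 by correlation. Outside that rule it names DI21, SRC2, LEA4-5 and the leaf markers RCA, PRK and PSAE-1, chosen after their values were seen. The members and lists were chosen with earlier results of these data known. A list gene was represented by its brightest probe set. No sequences were used here.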

Additional observations from a re-analysis of the deposited data

Results flagged for a closer look

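In a check of 58 groups of 4 arrays (29 named probe sets in both genotypes), 2 held an array that stood far from the others, where chance gives about 1 group in 20. AT4G33980 (15878_at) had a signal of 345.2 in WT replicate 2, against 124.6 to 142.4 in the other WT arrays. AT5G11770 (18710_at), one of the genes closest to COR15B, had a signal of 4635 in WT replicate 4, against 3935 to 4039 in the other WT arrays. No probe set of COR15B or KIN2 had such an array.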

How the results depend on the processing

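The genotype difference of COR15B stayed below 0 in all 23 alternatives, between -1.56 and -0.83. That of KIN2 (18700_r_at) stayed below 0 in all 23 on this probe set, between -0.69 and -0.077. It moved most with quantile normalization (-0.11) and scaling to control transcripts (-0.077), which turned 18699_i_at to 0.03. Filters, eBayes settings and the replicate block cannot change either difference, so these alternatives add nothing to the counts. Both genes were chosen on this contrast, and nothing is read from its sign. The harvest range of COR15B passed the threshold with a pseudocount of 64 (1.47), a filter of 200 (1.55), array weights (1.55) and scaling to control transcripts (3.22), and was 0.14 to 2.17 with arrays or pairs left out. The harvest range of KIN2 passed with a filter of 200 or array weights (1.11 in both), scaling to control transcripts (1.13, with replicate 3 highest and replicate 1 lowest, a different order) and the probe set shared with KIN1 (1.23), and was 0.68 to 1.28 with arrays or pairs left out. The 397 probe sets past the harvest threshold became 230 without a filter, 84 after quantile normalization, 138 without the intensity trend, 883 with array weights and 4192 after scaling to control transcripts, and 32 to 1476 with arrays or pairs left out. The causes were not tested. The 2 probe sets called between genotypes became 9 with the replicate block, which changed no other call. They were 0 with a pseudocount of 1 or a filter of 200, 1 without a filter and after quantile normalization, median centring or control scaling, and 11 with array weights. With arrays or pairs left out they were 0 to 2, and with the block and a pair left out 0 to 30. The count of 0 among the listed cold genes held in all 27 alternatives. Since these called only 0 to 30 of all tested probe sets, a count of 0 among few listed genes was nearly fixed, and nothing is read from it. Dim probe sets near the pseudocount, such as LTI30, have no firm fold change.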
